A study of Homo sapiens with 6 samples.

Results

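Interferon-stimulated genes and the RNA sensors that lie upstream of them were read in a human cell line, Flp-In T-REx 293, which was made from HEK293, with and without knockdown of the TET enzymes. The members were 39 gene names of RNA sensors and their helpers, interferon-response transcription factors, secreted ligands and antiviral effectors. A probe set counted as a member when the platform table gave it 1 gene symbol and that symbol was in the list. Of the 39 names, 37 had such a probe set, out of 19775 genes on the array, and 69 probe sets stood for them. STAT2 was not analysed here, and DDX58 is the older name of RIGI, which was read under its current name. Each gene was read at its probe set of highest mean log2 signal over all 6 arrays. The 3 clones, GFP#1, GFP#2 and GFP#3, each carried a stably integrated inducible GFP transgene that was left uninduced. One group of 3 arrays came from these clones 96 h after siRNA against TET1, TET2 and TET3 given together (TET siRNA), and the other group of 3 came from the clones given a pool of siRNA without a target (control). Both groups had therefore received siRNA, and cells without siRNA are not among the 6 arrays. All 6 samples are 1 cell line, and each group holds 1 array per clone. In the fit without a clone term, p-values measure only the spread between these clones within a group. In fits with the clone as a term, they measure only how far the siRNA difference varied between these clones.

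Cells recognise double-stranded or otherwise foreign RNA through cytosolic helicases such as RIG-I (gene RIGI) and MDA5 (gene IFIH1) and through the endosomal receptor TLR3. The helicases signal through the adaptor MAVS to the transcription factor IRF3, which switches on type I interferon, and secreted interferon then acts through its receptor, JAK kinases and a transcription factor complex that holds IRF9 to induce a large set of antiviral genes. DNA methyltransferase inhibitors are known to induce this response through transcripts of repeated elements. TET enzymes oxidise 5-methylcytosine, the product of these methyltransferases, and so act against the methyltransferases and not against their inhibitors. The members here show what the RNA-sensing genes did when the TET genes were knocked down.

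The values were MAS5 signals, an intensity on a linear scale that had been scaled to a trimmed mean of 1000 on each array. The arrays correlated with each other at 0.934 to 0.944 over 54613 probe sets (Pearson's r of log2 signal, across probe sets, which are not independent replicates). The targeted genes were lower on all TET siRNA arrays: TET1 fell by 2.48 on the log2 scale (limma, adjusted p = 0.0023). TET3 differed by -1.22 (limma, adjusted p = 0.0678, or 0.0021 with the clone as a block) and TET2 by -1.10 (limma, adjusted p = 0.198, or 0.0047 with the block). All 8 HEK293 markers read (neurofilament, vimentin, PAX and keratin genes) were above the brightness filter. Of the blood markers HBB alone passed it, while PTPRC, CD3D, CD3E, MS4A1, CD14 and LYZ were below it, and of the fibroblast and endothelium markers COL1A1 and PECAM1 passed.

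Many interferon-induced genes are bound at an interferon-stimulated response element, which is built from GAAA repeats, and the promoter stretches that hold such repeats are shown for a few members whose array values differed in kind. RefSeq promoters of build GRCh38.p14, from 250 bases before to 50 bases after the start site, were searched on both strands for GAAA, then any 2 bases, then GAAA, or its reverse complement TTTC, any 2 bases, TTTC, with overlapping copies counted separately. Of the 37 members, 30 had a promoter in the table, and 18 of these (60.0%) held at least 1 copy, beside 996 of 27305 promoters of the whole table (3.65%). Among members above the brightness filter 13 of 19 held a copy (68.4%), and among those below it 5 of 11 (45.5%). Over the whole array the shares were 2.57% of promoters of tested genes and 3.65% of those of named genes not tested. The first promoter listed for each gene was read. A match describes letters in a window and is no measure of binding. The lines below run 5′ to 3′ on the gene's strand, in lower case with the GAAA or TTTC letters of each match that ends before the start site in capitals, and stop before that site. A further match of IFIT5 spans the start site and is left in lower case.
ISG15, chr1:1013364-1013419, plus strand: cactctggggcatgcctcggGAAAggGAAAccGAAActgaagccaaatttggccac
IFIT1, chr10:89392487-89392549, plus strand: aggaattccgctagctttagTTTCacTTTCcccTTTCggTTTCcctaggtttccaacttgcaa
IFIT5, chr10:89414503-89414567, plus strand: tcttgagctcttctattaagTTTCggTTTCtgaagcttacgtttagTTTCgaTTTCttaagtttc
HERC5, chr4:88456974-88457074, plus strand: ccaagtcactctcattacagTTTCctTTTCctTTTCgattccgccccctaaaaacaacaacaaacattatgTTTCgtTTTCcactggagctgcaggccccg
BST2, chr19:17405725-17405780, minus strand: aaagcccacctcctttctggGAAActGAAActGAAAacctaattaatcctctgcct
IFI27, chr14:94110608-94110670, plus strand: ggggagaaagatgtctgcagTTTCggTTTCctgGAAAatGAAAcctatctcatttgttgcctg

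These 6 were chosen to show that such promoters belonged to genes with different array values. IFIT5 had the smallest p of the 21 tested members, HERC5 lay lower on all TET siRNA arrays, BST2 differed between clones, ISG15 and IFIT1 are textbook interferon targets that overlapped between groups, and IFI27 lay below the filter. The promoters differed in CpG content too. The median ratio of observed to expected CpG was 0.731 in members above the filter and 0.234 in members below it. Tested genes of the whole array had a median of 0.844, and named genes that were not tested a median of 0.356, so members above and below the filter differed in the direction in which all genes did.

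None of the interferon or RNA-sensor genes passed the test between TET siRNA and control. Of the 37 members, 21 passed the brightness filter, which kept the brighter 50% of probe sets (a geometric mean signal over the 6 arrays of at least 117), and were tested. With limma and Benjamini-Hochberg adjustment over 27306 probe sets, 0 of the 21 had an adjusted p under 0.05, and the smallest was 0.781, for IFIT5. The background was 2 of 12318 tested genes (0.0162%). With the clone as a block, 0 of the 21 passed and the smallest limma adjusted p was 0.187, again for IFIT5, against 162 genes (1.32%). At an unadjusted limma p under 0.05 the members' count was 0, where 6.96% of all tested genes stood, and with the block it was 1 (IFIT5), where 16.1% of all tested genes stood. In these bulk samples, fewer cells with a transcript and less RNA per cell cannot be told apart.

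The sizes were small in both directions. Of the 21 tested members 13 had a higher and 8 a lower mean log2 signal under TET siRNA, over a range from -0.14 to 0.31. Their median difference was 0.10 on the log2 scale, beside 0.0070 over all tested genes, and their median size regardless of sign was 0.14 beside 0.11. Without the control array of clone 1 the members' median was -0.046, with 9 higher and 12 lower. Within single clones the members' median was 0.07 in clone 1, 0.0076 in clone 2 and -0.0049 in clone 3. Of the 21, 7 members had the same sign in all 3 clones, 4 higher (RIGI, EIF2AK2, IFIT3 and IFIT5) and 3 lower (TRIM25, ISG15 and HERC5), where 37.9% of all tested genes did. The 3 arrays of each group did not overlap for 3 members, EIF2AK2 on the higher side and TRIM25 and HERC5 on the lower, where 13.2% of all tested genes did not overlap. For 19 of the 21 members the 95% interval of the difference, without a clone term, lay within 1 on the log2 scale in either direction, a 2-fold change, and the exceptions were OAS3 and BST2. With the clone as a block the SE of BST2 was 0.23 in place of 0.55, and that of OAS3 was 0.34 in place of 0.35. The block also lowered the SE of MAVS (0.08 in place of 0.18) and USP18 (0.09 in place of 0.18). It raised that of TLR3 (0.30 in place of 0.26). The limma adjusted p with the block was 0.514 for RIGI and 0.399 for EIF2AK2.

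**Figure D1:**
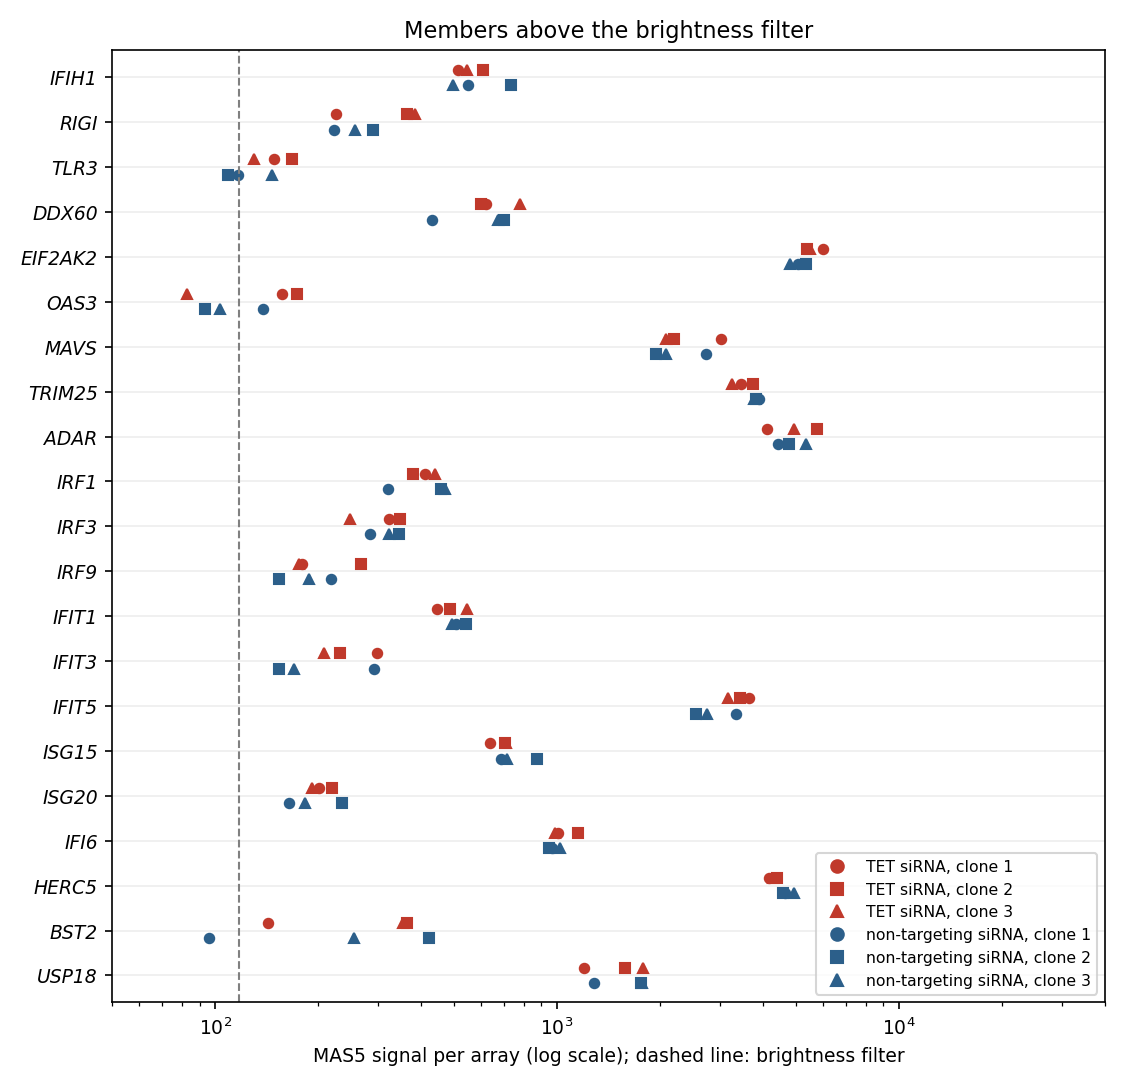
MAS5 signal of each of the 21 tested members on each of the 6 arrays, on a log axis, with TET siRNA in red, control in blue and 1 symbol per clone. The groups overlap for 18 of the 21 genes, and the exceptions are EIF2AK2, TRIM25 and HERC5.

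Among the RNA sensors and their helpers, 7 of 9 tested members lay higher and 2 lower, with a median of 0.15 on the log2 scale, and none passed. RIGI, the helicase that binds short RNA with a triphosphate end, had signals of 225, 365 and 385 in clones 1 to 3 under TET siRNA and 223, 290.2 and 257 in control. The group means were 325 ± 86.9 and 257 ± 33.8 (SD, n = 3), a log2 difference of 0.31 (SE 0.25, limma adjusted p = 0.876). Clone 1 had nearly the same signal in both groups while clones 2 and 3 were higher under TET siRNA, by 0.33 and 0.58, so the groups overlapped. The other tested probe sets of RIGI differed by 0.31 and 0.62, the latter mixed in sign between clones. IFIH1, which encodes the sensor of long double-stranded RNA, read 515, 607 and 547 against 551, 733 and 497, a log2 difference of -0.08 (SE 0.18, limma adjusted p = 0.968). Clone 3 alone was higher under TET siRNA for IFIH1, and the highest of the 6 signals was a control. TLR3, the endosomal receptor for double-stranded RNA, read 149, 168 and 129.9 against 116, 109 and 146, a log2 difference of 0.27 (SE 0.26, limma adjusted p = 0.906). In TLR3 the control of clone 3 reached into the range of the TET siRNA arrays, and its other tested probe set differed by 0.41. DDX60, a helicase-like helper of the sensors, read 619, 599 and 781 against 429, 700.0 and 674, a log2 difference of 0.17 (SE 0.21). Its low control in clone 1 stood apart from the other arrays, and clone 2 went the other way.

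EIF2AK2 encodes PKR, the kinase that shuts down translation when it binds double-stranded RNA. Its brightest probe set read 5996, 5373 and 5489 under TET siRNA and 5078, 5345 and 4818 in control, with group means of 5619 ± 332 and 5080.1 ± 264 (SD, n = 3). The groups did not overlap, although the arrays of clone 2 were close, and the log2 difference was 0.15 (SE 0.09, limma adjusted p = 0.819). A second probe set of the same gene, with a suffix that marks possible cross-hybridisation, ran the other way, at 3288, 3562 and 3172 against 3601, 3587 and 3716, a log2 difference of -0.12 with no overlap. Its remaining tested probe set differed by 0.19 with overlapping groups. The sign for EIF2AK2 therefore differed between its probe sets. MAVS, the mitochondrial adaptor of both helicases, read 3017, 2205 and 2077 against 2725, 1946 and 2084, a log2 difference of 0.11 (SE 0.18, limma adjusted p = 0.955). Clone 1 was high in both groups for MAVS, and its other probe sets differed by -0.13, -0.04 and 0.06.

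TRIM25, a ubiquitin ligase that aids RIG-I signalling, read 3452, 3738 and 3258 under TET siRNA and 3906, 3813 and 3775 in control at its brightest probe set. The means were 3483 ± 241 and 3832 ± 67.5 (SD, n = 3), a log2 difference of -0.14 (SE 0.09, limma adjusted p = 0.833), with all TET siRNA arrays below all controls. A dimmer TRIM25 probe set showed the opposite, at 225, 221 and 180.5 against 159, 158 and 101, a log2 difference of 0.61 (SE 0.27, limma adjusted p = 0.754), with all TET siRNA arrays above all controls. Neither passed, so no direction can be given for TRIM25. OAS3, a synthetase of the oligoadenylate messenger that activates RNase L, read 157, 174 and 82.9 against 138, 93.6 and 103. Its log2 difference was 0.25 (SE 0.35, limma adjusted p = 0.942), and both the highest and the lowest array were TET siRNA. ADAR, the enzyme that edits adenosine to inosine in double-stranded RNA, read 4114, 5743 and 4930.0 against 4419, 4756 and 5348. It differed by 0.02 (SE 0.13, limma adjusted p = 0.993), and its 95% interval ran from -0.28 to 0.32.

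The transcription factors IRF1, IRF3 and IRF9 each had overlapping groups and mixed signs between clones. IRF1, itself interferon-inducible, read 411, 379 and 439.8 against 320.5, 458 and 469.9, a log2 difference of -0.0038 (SE 0.19). IRF3, the constitutive factor downstream of MAVS, read 323, 348 and 248 against 284, 344 and 322, a log2 difference of -0.06 (SE 0.20). IRF9, the DNA-binding part of the interferon-activated complex, read 179.9, 267 and 176 against 219, 154 and 188, a log2 difference of 0.14 (SE 0.26). The IRF9 value rested on clone 2, which was higher by 0.79 while clones 1 and 3 were lower. The limma adjusted p-values of the 3 genes were 0.999, 0.980 and 0.962.

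Of 9 tested antiviral effectors 5 lay higher and 4 lower, with a median of 0.09 on the log2 scale, and none passed. IFIT5, of a family that binds foreign RNA ends, read 3649.7, 3424 and 3163 under TET siRNA and 3343, 2554 and 2739 in control. The means were 3412 ± 244 and 2878 ± 413 (SD, n = 3), a log2 difference of 0.25 (SE 0.12, 95% interval -0.02 to 0.53) or 1.19-fold, with limma adjusted p = 0.781, and 0.187 with the clone as a block. All 3 clones were higher for IFIT5, by 0.13, 0.42 and 0.21, but the control of clone 1 lay above the TET siRNA array of clone 3. A second IFIT5 probe set was also higher in all 3 clones, by 0.16 on average. Its relatives had mixed probe sets or overlapping groups. IFIT3 read 297, 231 and 208 against 290.5, 154 and 171, a log2 difference of 0.30 (SE 0.29, limma adjusted p = 0.905), and its second probe set differed by -0.05. IFIT1 read 445, 486 and 545 against 505, 539.9 and 491, a log2 difference of -0.06 (SE 0.15, limma adjusted p = 0.969), with overlapping groups.

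ISG15, a ubiquitin-like protein that is attached to target proteins, read 639, 703 and 709 against 684, 874 and 716, a log2 difference of -0.14 (SE 0.14, limma adjusted p = 0.914). Each clone was lower for ISG15, clone 3 by only 0.01. HERC5, the ligase that attaches ISG15, read 4166, 4410.4 and 4296 against 4642, 4571 and 4932. The means were 4291 ± 122 and 4715 ± 191 (SD, n = 3), a log2 difference of -0.14 (SE 0.08, limma adjusted p = 0.821), with no overlap between the groups. USP18, which removes ISG15 and dampens the interferon receptor, read 1200.0, 1579 and 1781 against 1281, 1761 and 1768, a log2 difference of -0.08 (SE 0.18, limma adjusted p = 0.968). Clone 1 was the lowest in both groups for USP18.

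The remaining tested effectors overlapped between groups. IFI6, a small membrane protein that opposes cell death, read 1009.7, 1151 and 987 against 965, 949.6 and 1021, a log2 difference of 0.10 (SE 0.12, limma adjusted p = 0.932). ISG20, an exonuclease of single-stranded RNA, read 202, 219 and 192 against 164, 236 and 183, a log2 difference of 0.09 (SE 0.22, limma adjusted p = 0.973). BST2, or tetherin, which holds budding virus on the cell surface, read 143, 364 and 354 against 95.8, 421 and 255. Its log2 difference was 0.28 (SE 0.55, 95% interval -0.97 to 1.53, limma adjusted p = 0.965). Clone 1 was low in both groups, and with the clone as a block the SE was 0.23 (limma adjusted p = 0.630).

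**Figure D2:**
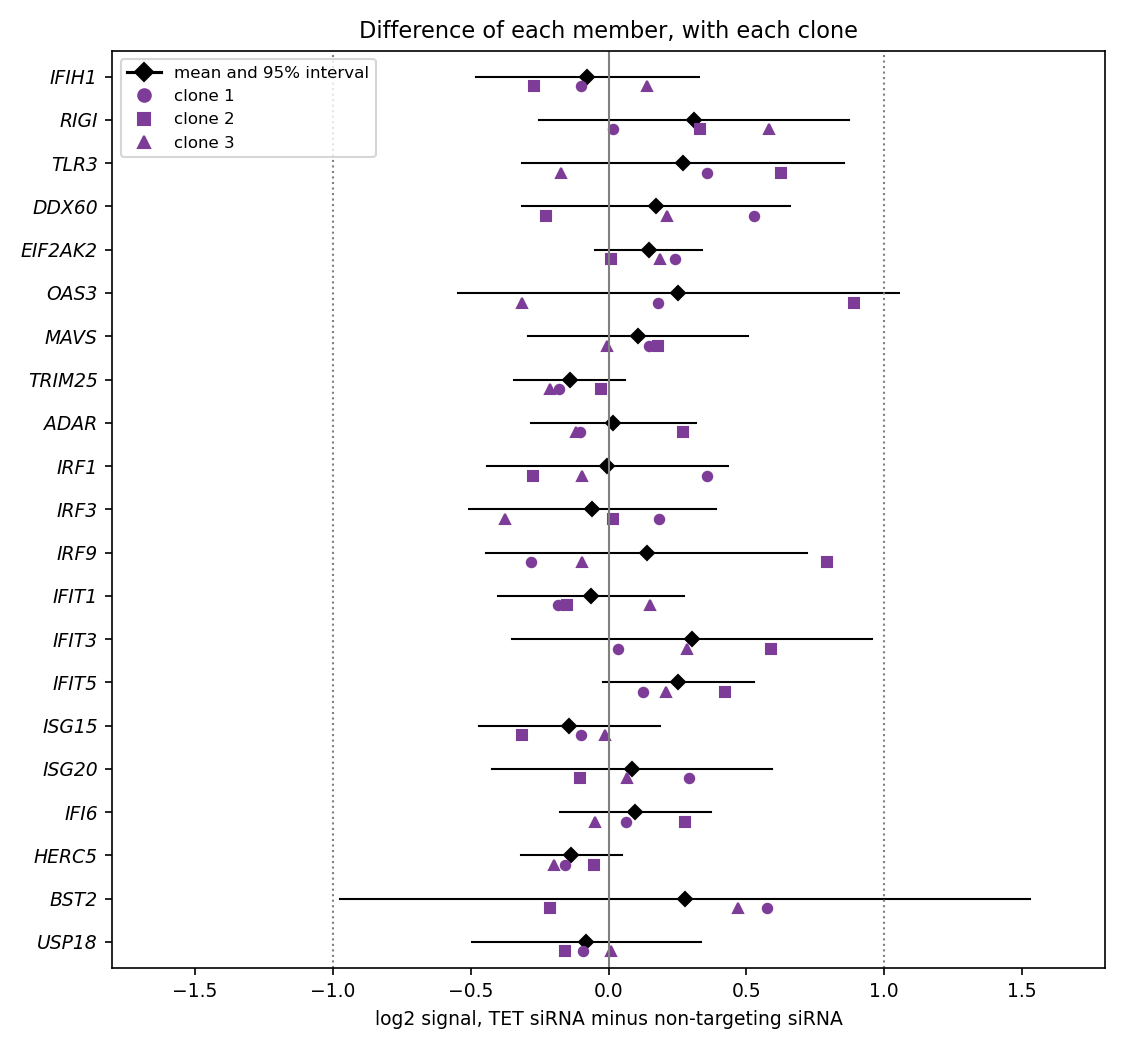
Difference in log2 signal, TET siRNA minus control, for each tested member: the diamond is the mean, the line its 95% interval from limma without a clone term, and the purple symbols are the 3 clones. Every interval contains 0, and only those of OAS3 and BST2 reach beyond 1, the dotted line.

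The members were also compared between clones, a comparison added after the data were seen. Clone 1 against the mean of clones 2 and 3 passed for 3 of the 21 members (limma with the siRNA group as a term, adjusted over all tested probe sets), which is 1 higher and 2 lower. This was no larger a share than the 16.9% of all tested genes that passed. BST2 was 2.93-fold lower in clone 1 (log2 difference -1.55, SE 0.24, limma adjusted p = 0.0021). USP18 was lower by -0.47 (SE 0.10, limma adjusted p = 0.0100) and MAVS was higher by 0.47 (SE 0.09, limma adjusted p = 0.0063). Another tested MAVS probe set read 823 and 677 in clone 1 (TET siRNA, then control). Clones 2 and 3 read 882 and 783 there under TET siRNA, and 929 and 973 in control. A further MAVS probe set was higher in clone 1 in both groups (1580 against 1337 and 1274, and 1625 against 1434 and 1514.5). The remaining MAVS probe set was mixed. Leaving out an array moved the count of members that passed. Without the TET siRNA array of clone 2 it was 5 (adding DDX60 and IFIT5) and 2314 of all tested genes passed, and without its control array it was 4 (adding ADAR) and 3150 passed, beside 2084 with all arrays. Without the TET siRNA array of clone 1 only BST2 still passed (adjusted p = 0.0175 by limma), and likewise without the control array of clone 1 (adjusted p = 0.0437 by limma), while MAVS and USP18 gave 0.108 and 0.112, and 0.0691 and 0.0912. In those fits 605 and 606 of all tested genes passed, and clone 1 is a single array assumed to vary like clones 2 and 3, so they are no replicate check of clone 1. Each clone is 1 culture line, so a clone's difference and its handling cannot be told apart.

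**Figure D3:**
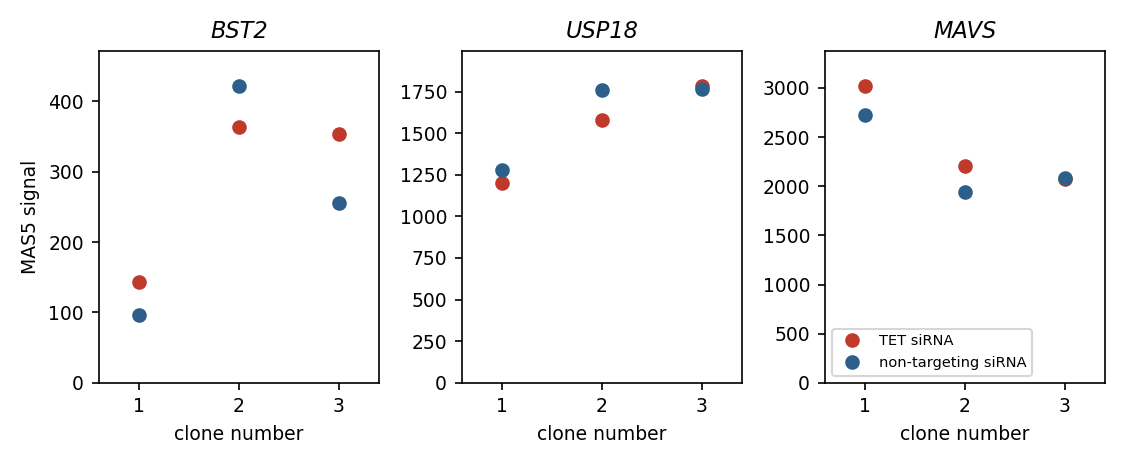
MAS5 signal of BST2, USP18 and MAVS, each at its brightest probe set, against clone number. The TET siRNA array is in red and the control array in blue, and each axis starts at 0. Both arrays of clone 1 lie below those of clones 2 and 3 for BST2 and USP18 and above them for MAVS.

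The other 16 members were too dim to read as changes: OAS1, OAS2, OASL, IRF7, IFNB1, CXCL10, CXCL11, IFIT2, MX1, MX2, IFI27, IFI44, IFI44L, XAF1, RSAD2 and SP100. Their geometric mean signals ran from 8.74 to 107. Interferon beta itself and both interferon-induced chemokines were among them. IFNB1, the gene of interferon beta, read between 4.39 and 47.9 over the 6 arrays with a median of 6.71, and its highest array was TET siRNA of clone 2. CXCL10 read between 11.4 and 135 with a median of 20.2, and was higher under TET siRNA in clones 1 and 2 and lower in clone 3.

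CXCL11 was the only dim member past 1 on the log2 scale with the same sign in all 3 clones. It read 22.6, 5.48 and 1.77 under TET siRNA and 29.5, 56.8 and 15.0 in control, a log2 difference of -2.28. A second CXCL11 probe set differed by -1.38 with mixed signs. Without the filter the smallest limma adjusted p of the 16 was 0.893, and 0.492 with the clone as a block, so 0 passed in either fit.

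The antiviral effectors and oligoadenylate synthetases below the filter gave ranges that overlapped between the groups. The shared stretch was short for OAS2 (12.5 to 89.0 under TET siRNA, 79.0 to 103 in control). It was also short for RSAD2 (25.9 to 45.8 and 37.3 to 94.6). MX1, a GTPase that traps viral nucleoproteins, lay between 15.3 and 108, and MX2 between 81.1 and 137. RSAD2, or viperin, lay between 25.9 and 94.6, IFIT2 between 24.1 and 110.5, and XAF1, a pro-apoptotic gene, between 56.3 and 102. IFI27, IFI44 and IFI44L, whose transcripts are widely used as interferon signature genes, lay between 19.7 and 156, between 36.4 and 89.7, and between 74.7 and 157. OAS1 lay between 7.79 and 88.8, OAS2 between 12.5 and 103, and OASL between 54.6 and 185. IRF7, the amplifier of interferon transcription, lay between 40.1 and 104, and SP100, a nuclear body protein, between 36.3 and 87.9 at its brightest probe set.

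The clones gave less alike values in dim members. The SD of the 3 clone differences had a median of 0.92 on the log2 scale in the 16 dim members, against 0.21 in the 21 tested ones. Of the 16, 14 had mixed signs and 2 were lower in every clone (OASL, by -0.34 on average, and CXCL11). Several probe sets of SP100 show the scatter within a gene: one differed by 2.32 and another by -2.31, each with the same sign in all 3 clones.

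**Figure D4:**
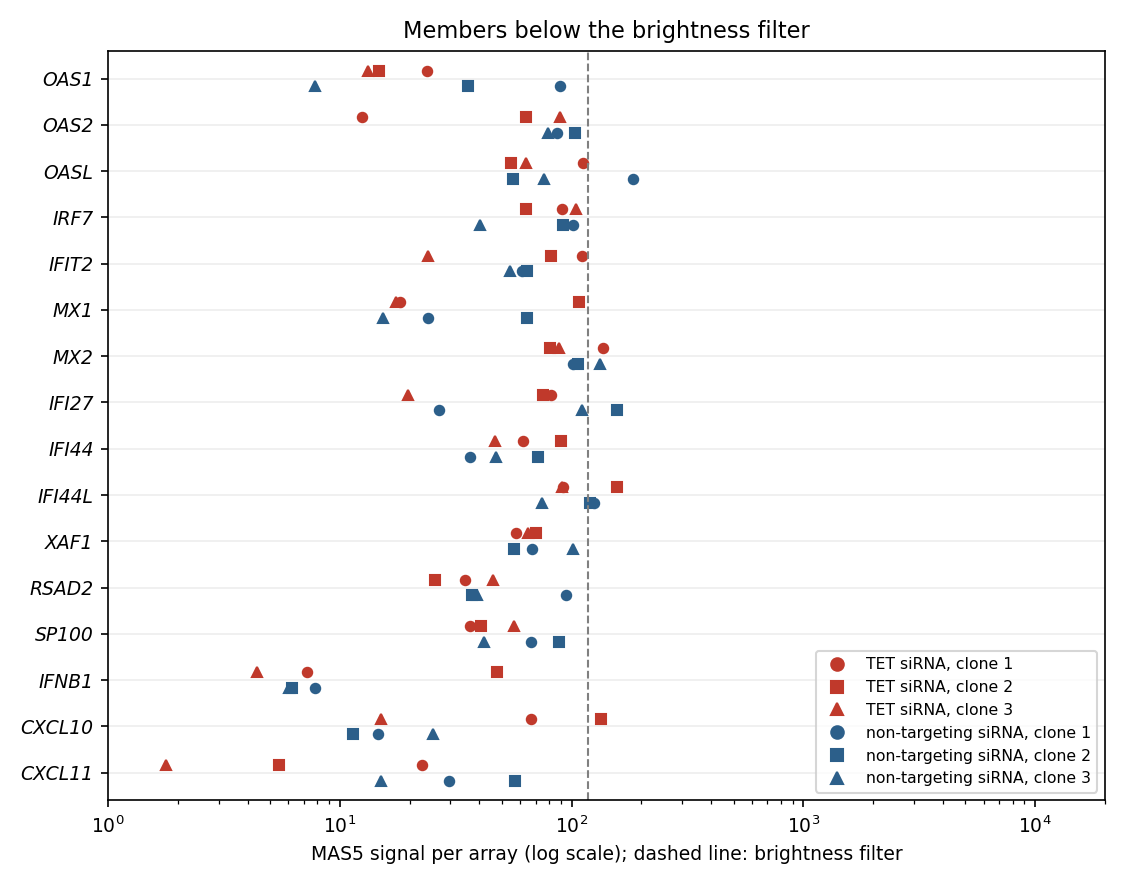
MAS5 signal of the 16 members below the brightness filter on each array, on a log axis, with the filter at 117 as a dashed line. Signals of the 2 groups overlap for every gene shown, and IFNB1 and CXCL11 reach down to 4.39 and 1.77.

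The rest of the pathway was read from 4 further gene lists, in which 82 genes were tested. Without a clone term limma called 0 of the 82, beside 0.0162% of all tested genes, and 3 had an unadjusted p under 0.05, beside 6.96%. With the clone as a block it called 1, IFNAR1, beside 1.32%. In that fit 16 higher and 4 lower genes of the 82 had an unadjusted limma p under 0.05. Of all 12318 tested genes, 1060 higher and 928 lower did (16.1% in either direction). Of the interferon receptors, JAK-STAT genes and their inhibitors, 5 of 14 lay higher and 9 lower, with a median of -0.06. IFNAR1, a chain of the type I interferon receptor, read 2273, 1337 and 1677 under TET siRNA and 1809, 931 and 964 in control, a log2 difference of 0.55 (SE 0.28, limma adjusted p = 0.790). Its clone differences were 0.33, 0.52 and 0.80, and with the block the adjusted p was 0.0419. In limma with the block, that call was kept without replicate 2 (log2 difference 0.56, adjusted p = 0.0198) and lost without replicate 1 (0.66, adjusted p = 0.0728) and without replicate 3 (0.43, adjusted p = 0.355). It was also lost without the brightness filter (adjusted p = 0.176 by limma). With plain empirical Bayes and the block it was lost too (adjusted p = 0.323 by limma), in a fit that called 0 of all probe sets. The other probe sets of IFNAR1 differed by 0.33, -0.06 and 0.06. IFNAR2, the other chain, differed by -0.10 (SE 0.15, limma adjusted p = 0.952). On the lower side, and chosen after their values were seen, IL10RB, a receptor chain shared by type III interferon and interleukin 10, differed by -0.33 (SE 0.15, limma adjusted p = 0.759, or 0.0935 with the block), lower in all 3 clones. IFNGR1, a chain of the interferon gamma receptor, differed by -0.16 (SE 0.09, limma adjusted p = 0.796), and its groups did not overlap at either of its tested probe sets.

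Of 23 other nucleic acid sensors, adaptors and kinases, 11 lay higher and 12 lower, with a median of -0.0026. TRADD, an adaptor shared with the tumour necrosis factor receptor, had the smallest p, with a log2 difference of -0.37 (SE 0.16, limma adjusted p = 0.755), and its other tested probe set differed by -0.09. NLRX1, a mitochondrial regulator of MAVS signalling, differed by 0.25 (SE 0.13, limma adjusted p = 0.793).

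Of 30 further interferon-stimulated genes, 23 lay higher and 7 lower, with a median of 0.20 on the log2 scale, beside 6397 of 12318 tested genes higher and a median of 0.0070. The list's median was 0.11, 0.30 and 0.17 in clones 1, 2 and 3. When arrays or clones were left out it was lowest without the control array of clone 2, at 0.13 (22 higher, 8 lower). It was highest without both arrays of clone 1, at 0.21 (25 higher, 5 lower). None of the 30 passed. PARP14, an ADP-ribosyltransferase, read 393, 338 and 373 under TET siRNA and 298, 216 and 281 in control, a log2 difference of 0.48 (SE 0.19, limma adjusted p = 0.720). DTX3L, the ubiquitin ligase partner of PARP9, read 1542, 1418 and 1518 against 1258, 1152 and 1309, a log2 difference of 0.27 (SE 0.11, limma adjusted p = 0.738). Neither gene's groups overlapped. Of the 30, 6 lay higher and 1 lower without overlap, beside 13.2% of all tested genes. Besides PARP14 and DTX3L these were, chosen after their values were seen, TRIM56, TRIM14, PARP12 and TRIM21, which differed by 0.28, 0.22, 0.17 and 0.33, and APOBEC3B, which differed by -0.39.

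Of 15 antigen presentation genes 9 lay higher and 6 lower, with a median of 0.13, and none passed. ERAP1, a peptidase that trims peptides for class I molecules, read 1255, 1137 and 1319.7 against 868, 932 and 891. The means were 1237 ± 92.8 and 897 ± 32.5 (SD, n = 3), a log2 difference of 0.46 (SE 0.12, limma adjusted p = 0.454, or 0.0771 with the block). Its other tested probe sets differed by 0.04 and 0.43, and ERAP2, a related peptidase, by 0.22 (SE 0.12, limma adjusted p = 0.801). When arrays or clones were left out, this list's median was lowest without the control array of clone 1, at -0.0028 (7 higher, 8 lower). It was highest without the TET siRNA array of clone 1, at 0.17 (14 higher, 1 lower).

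**Figure D5:**
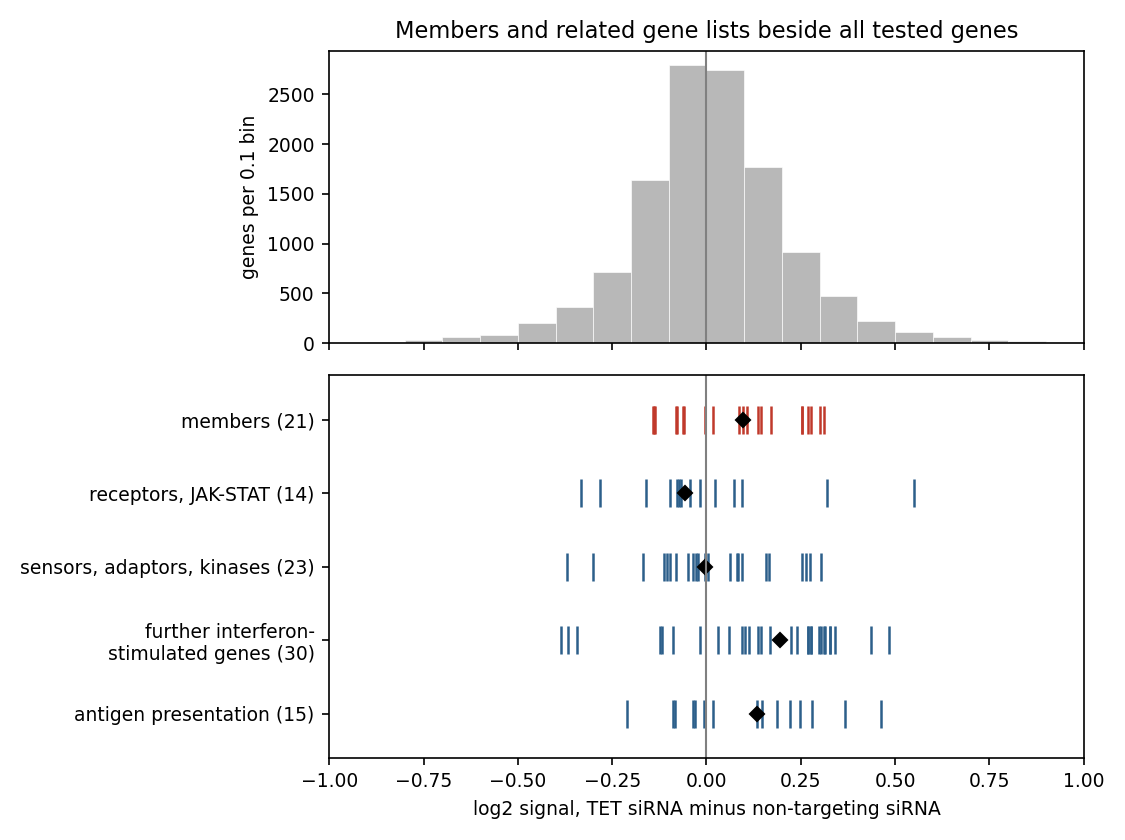
Difference in log2 signal, TET siRNA minus control: a histogram of tested genes in bins of 0.1 above, and below 1 tick per gene for the members and 4 related lists, with the median as a diamond. The axis is cut at -1 and 1, so that genes beyond it are not drawn, and the further interferon-stimulated genes have the highest median of the lists, 0.20.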

How the data were processed

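The authors deposited 1 column of MAS5 signal intensity per array on a linear scale, already scaled to a trimmed mean of 1000. Per the submitters' processing notes the tool was MAS5, and its version was not stated there. Of the array's 54675 probe sets, 62 were array controls and were set aside. Of the rest, 41091 had 1 gene symbol, 1801 several and 11721 none. Intensities were log2 transformed, and the 27306 probe sets in the upper 50% by mean log2 signal were tested with limma 3.58.1 in R 4.3.3 (eBayes with trend and robust, two-sided, Benjamini-Hochberg adjusted over all tested probe sets, called at 0.05). The main fit had no clone term. Clone numbers come from the labels, and arrays of the same clone deviated together (correlations of deviations 0.493, 0.234 and 0.236), so the numbers pair the samples and the fit with the clone as a block stands beside the main one. The SEs, intervals and adjusted p-values of single genes are from the main, unpaired fit unless another fit is named. The code was tested on simulated data.

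The members and gene lists were chosen with earlier results of these data known. Every tested member is given on all arrays. Dim members are given by range, and by array only past 1 on the log2 scale with the same sign in 3 clones. Of each related list up to 4 called genes are named, or else the 2 of smallest p, and always IFNAR1 and IFNAR2. A further gene of that rule is not reported here. Alternatives were the block, the filter, a pseudocount, quantile normalization, plain empirical Bayes, the mean of a gene's probe sets and leaving out arrays. The number of arrays, 3 per group, limits the precision, and no permutation of 3 against 3 gives a p under 0.1.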

Additional observations from a re-analysis of the deposited data

How the results depend on the processing

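The count of members called stayed 0 under every alternative in which it was taken. It was not taken for the replicate block without replicate 1, 2 or 3. The count of related genes called was 0, and 1 with the replicate block (IFNAR1). Over all probe sets, 4 were called in the main fit, 282 with the replicate block, 14 in the upper 30% by signal, 1 with plain empirical Bayes, 0 with plain empirical Bayes and the replicate block, 1805 at an unadjusted p under 0.05, and 0 to 121 when arrays or clones were left out. With the replicate block and without replicate 1, 2 or 3, alternatives chosen after seeing the data, as was the clone comparison, the counts were 108, 684 and 63. The members' median log2 difference of 0.10 became 0.0171 both without the filter (over 37 members) and in the upper 30% (over 11), and -0.046 to 0.12 when arrays or clones were left out, with the lowest value without the control array of clone 1. Reversed signs, none of them called, came from averaging a gene's probe sets (MAVS -0.00045, TRIM25 0.23, IRF1 0.027) and from leaving out arrays or clones, which gave IFIH1 -0.20 to 0.085, DDX60 -0.054 to 0.37, OAS3 -0.066 to 0.58, MAVS -0.058 to 0.25, ADAR -0.11 to 0.14, IRF1 -0.18 to 0.13, IRF3 -0.18 to 0.10, IRF9 -0.19 to 0.35, IFIT1 -0.17 to 0.0080, ISG20 -0.027 to 0.23, BST2 -0.31 to 0.75 and USP18 -0.23 to 0.081. The cause of these changes was not tested, beyond the fewer arrays or probe sets in each fit. No sign reversed under quantile normalization or the pseudocount. The filters and the replicate block leave each gene's difference unchanged, so they could not reverse a sign. With 3 arrays per group and low signals for 16 of 37 members, small changes in the dim genes could be missed. The size of change that could be detected in them was not tested.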
